A study of Mus musculus with 8 samples.

Results

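The NFATc2 sites at promoters are the ChIP-seq peaks of NFATc2 whose summit lay within 1 kb of an annotated transcription start site (TSS) of the mouse genome (mm9). By this rule 1288 of the 9438 NFATc2 peaks were at promoters, or 13.6% with a 95% Wilson interval of 13.0 to 14.4%, and the remaining 8150 peaks are called other NFATc2 sites below. The rule used position alone and no measured level. The 1288 sites lay within 1 kb of a TSS of 1403 of the 37273 annotated genes (3.76%) and of 1183 of the 22367 protein-coding genes (5.29%). Of those 1403 genes, 1361 had 1 site, 40 had 2 and 2 had 3.

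All libraries came from D1 cells, a long-term line of splenic dendritic cells (DC) from C57BL/6 mice. For NFATc2 the D1 cells carried NFATc2 with a C-terminal V5 tag, delivered by lentivirus and kept as a stable line sorted for low expression of a GFP reporter, and were given curdlan at 10 μg/ml for 30 min before chromatin was recovered with an anti-V5 antibody. The tagged protein was therefore expressed beside the cells' own NFATc2, which the antibody does not see. H3K4me3 was mapped in D1 cells under 3 conditions, namely not treated (NT), curdlan at 10 μg/ml for 2 h, and the same curdlan exposure together with FK506. A single ChIP library and a single input stood for each condition, so no difference has a replicate check, no test between conditions could be made, and every interval given here covers counting error only. After duplicate removal 14377535 tags were left for the NFATc2 ChIP, and the H3K4me3 libraries of the NT, curdlan and FK506 conditions had 16662316, 21289349 and 19468498. Of the marker genes checked against the labelled cell type, 12 of 12 annotated dendritic and myeloid marker genes had an NT peak within 1 kb of a TSS, Itgax, Itgam, Clec7a and Cd74 among them, against 1 of 5 T cell markers (Lck), 0 of 4 B cell markers and 1 of 5 fibroblast and epithelial markers (Cdh1).

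Curdlan is a particulate β-glucan that engages dectin-1, the C-type lectin receptor encoded by Clec7a, whose signal through Syk and phospholipase C raises cytosolic calcium. Calcium activates the phosphatase calcineurin, which strips phosphates from NFAT proteins and lets them enter the nucleus, and FK506 blocks this step by inhibiting calcineurin. NFATc2 binds DNA through its Rel homology domain at the core GGAAAA and can bind together with AP-1 dimers of Fos and Jun at composite sites. H3K4me3, trimethylation of lysine 4 of histone H3, marks the nucleosomes that flank active and poised promoters.

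The sequences below were read from mm9 on the strand of the gene, 100 bp to either side of the NFATc2 summit and cut short where an annotated exon began. Capitals mark GGAAAA or its reverse complement TTTTCC, the NFAT core, and TGANTCA, the AP-1 consensus. The first set holds 5 of the cytokine, chemokine and TNF ligand sites together with the immediate early gene Egr2. Tnf (chr17:35338953-35339142, minus strand, summit 90 bp upstream of the TSS) held 2 NFAT cores, whereas Ccl3 (chr11:83462858-83463037, minus strand, 80 bp upstream) and Ccl4 (chr11:83475830-83476030, plus strand, 156 bp upstream) held 1 each. Cxcl2 (chr5:91332511-91332711, plus strand, 286 bp upstream), Il23a (chr10:127735236-127735436, minus strand, 196 bp upstream) and Egr2 (chr10:66999920-67000120, plus strand, 597 bp upstream) held neither motif in the window.
Tnf: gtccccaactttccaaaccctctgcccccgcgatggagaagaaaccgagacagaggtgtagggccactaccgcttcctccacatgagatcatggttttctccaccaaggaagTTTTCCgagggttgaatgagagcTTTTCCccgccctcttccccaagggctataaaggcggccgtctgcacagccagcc
Ccl3: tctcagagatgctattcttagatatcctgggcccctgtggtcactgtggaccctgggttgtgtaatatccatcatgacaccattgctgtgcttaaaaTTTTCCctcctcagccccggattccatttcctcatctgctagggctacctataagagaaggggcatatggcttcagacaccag
Ccl4: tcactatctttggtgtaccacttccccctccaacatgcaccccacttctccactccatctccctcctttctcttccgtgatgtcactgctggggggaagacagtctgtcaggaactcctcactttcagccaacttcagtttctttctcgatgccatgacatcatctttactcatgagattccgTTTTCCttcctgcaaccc
Cxcl2: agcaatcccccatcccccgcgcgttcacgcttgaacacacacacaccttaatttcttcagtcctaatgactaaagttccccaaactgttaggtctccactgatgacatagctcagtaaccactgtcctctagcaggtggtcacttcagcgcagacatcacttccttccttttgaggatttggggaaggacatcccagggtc
Il23a: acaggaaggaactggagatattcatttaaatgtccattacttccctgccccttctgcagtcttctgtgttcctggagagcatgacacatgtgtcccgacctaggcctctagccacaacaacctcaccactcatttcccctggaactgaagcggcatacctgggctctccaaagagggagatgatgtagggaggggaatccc
Egr2: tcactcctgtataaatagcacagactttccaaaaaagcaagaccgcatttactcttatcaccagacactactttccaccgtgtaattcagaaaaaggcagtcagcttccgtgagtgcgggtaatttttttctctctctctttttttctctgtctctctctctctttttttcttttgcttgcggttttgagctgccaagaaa

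The second set holds the 3 promoter sites with the most NFATc2 tags, at Rilpl2 (chr5:124928376-124928557, minus strand, 82 bp upstream), Prkar1b (chr5:139500423-139500623, minus strand, 759 bp upstream) and the noncoding transcript Gm12301 (chr11:67391481-67391681, minus strand, 613 bp upstream). The window at Rilpl2 held no NFAT core and a long run of A, that at Prkar1b held 1 core and that at Gm12301 held 2.
Rilpl2: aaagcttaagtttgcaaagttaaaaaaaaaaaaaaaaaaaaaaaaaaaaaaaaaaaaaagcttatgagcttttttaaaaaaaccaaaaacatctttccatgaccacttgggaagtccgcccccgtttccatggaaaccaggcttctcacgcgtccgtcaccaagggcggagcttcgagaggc
Prkar1b: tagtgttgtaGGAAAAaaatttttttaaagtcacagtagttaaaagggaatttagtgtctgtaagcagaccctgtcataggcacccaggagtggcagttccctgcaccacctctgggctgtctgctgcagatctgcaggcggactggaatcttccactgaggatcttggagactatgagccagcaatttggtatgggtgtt
Gm12301: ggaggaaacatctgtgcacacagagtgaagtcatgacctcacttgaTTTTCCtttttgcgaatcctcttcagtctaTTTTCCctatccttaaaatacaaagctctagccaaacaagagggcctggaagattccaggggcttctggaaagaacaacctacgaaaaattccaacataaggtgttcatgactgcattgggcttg

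Nr4a1 (chr15:101096837-101097037, plus strand, 340 bp upstream) and Tnfsf14 (chr17:57333664-57333864, minus strand, 152 bp upstream) are printed for their H3K4me3 values, a choice made after those were seen, since Nr4a1 had the largest ratio of curdlan over NT and Tnfsf14 the most curdlan tags among regions with no NT peak. Nr4a1 held 1 NFAT core, and Tnfsf14 held an AP-1 consensus at its summit and no NFAT core.
Nr4a1: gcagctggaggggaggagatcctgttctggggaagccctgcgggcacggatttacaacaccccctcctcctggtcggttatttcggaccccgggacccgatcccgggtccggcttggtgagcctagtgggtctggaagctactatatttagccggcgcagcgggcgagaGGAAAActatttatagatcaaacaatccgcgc
Tnfsf14: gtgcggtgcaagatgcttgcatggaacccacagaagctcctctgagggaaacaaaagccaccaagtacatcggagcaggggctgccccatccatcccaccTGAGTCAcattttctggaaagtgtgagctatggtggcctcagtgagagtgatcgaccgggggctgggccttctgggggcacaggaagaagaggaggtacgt

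The promoter sites gathered just upstream of the TSS. The summit lay upstream of the nearest TSS at 748 sites (58.1%, 55.4 to 60.7%), downstream at 539 and on the TSS base at 1. The median signed distance was -71.5 bp and the median absolute distance 353.5 bp, with 249 sites (19.3%) within 100 bp and 782 (60.7%) within 500 bp. Within 200 bp of the TSS, 287 summits lay upstream or on the TSS and 146 lay downstream. In the plot of summit position the count per 100 bp rose from 39 at 400 to 500 bp upstream to 143 in each of the 2 bins nearest the TSS on the upstream side, and fell to 30 between 200 and 300 bp downstream. By annotation 570 summits (44.3%) lay in an intron, 463 (35.9%) outside any transcript and 255 (19.8%) in an exon.

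**Figure D1:**
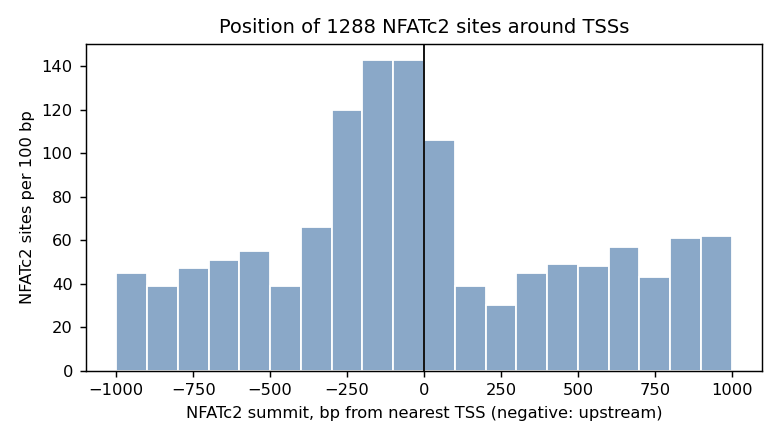
Number of NFATc2 sites at promoters (y axis, sites per 100 bp) by distance of the summit from the nearest TSS (x axis, bp, negative values upstream, line at the TSS). The 2 bins just upstream of the TSS hold 143 sites each, and the bin from 0 to 100 bp downstream holds 106.

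The genes at these sites were mainly protein-coding. The nearest TSS belonged to a protein-coding gene at 1106 sites (85.9%), to a processed transcript at 59, to a lincRNA at 46, to a small RNA at 60 and to a pseudogene at 16. At 79 sites (6.13%) protein-coding TSSs on both strands lay within 1 kb, and a value at such a site cannot be given to 1 gene. At the edge of the rule, the sites farthest inside were those of Gm1335 (1000 bp upstream, 224 tags), Gm15587 (1000 bp upstream, 264 tags) and Gm6990 (999 bp upstream, 66 tags), and the nearest left outside were those of F830208F22Rik (1002 bp upstream, 63 tags), Enox (1002 bp upstream, 31 tags) and Dnajc3 (1003 bp downstream, 104 tags).

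The NFATc2 signal at promoters was in the range of that elsewhere. The promoter peaks held a median of 65 tags (quartiles 44 and 101, range 16 to 1007) against 63 tags (40 and 105) at other NFATc2 sites, and spanned a median of 1069 bp against 1062 bp. By fold enrichment over the local background, the order turned, with a median of 12.2 at promoters and 13.5 elsewhere. A peak p-value of 1e-10 or less was given to 605 promoter sites (47.0%, 44.3 to 49.7%) and to 51.0% of other sites. Together the promoter sites held 109832 tags, which is 13.7% of all tags in NFATc2 peaks and 0.764% of all NFATc2 ChIP tags. Another NFATc2 summit lay within 10 kb of 31.1% of promoter sites and of 35.0% of other sites.

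The promoter site with the most tags was that of Rilpl2, a binding partner of Rab GTPases, with 1007 tags over a peak of 7690 bp. It was followed by Prkar1b, a regulatory subunit of protein kinase A, with 510 tags and by Gm12301 with 498. Ccl4 (491 tags) and Ccl3 (400 tags), which encode the chemokines MIP-1β and MIP-1α, were also among the 15 strongest promoter sites. So was Tnf (489 tags), which encodes the inflammatory cytokine. These 3 were the cytokine and chemokine genes among the leading 15. The others of the leading 15 were at Tctex1d4 (410 tags), Cdk14 (396), a U6 small nuclear RNA copy (382), the phosphatase gene Ptpn22 (370), Mlec (361), Gm11998 (333), Tmem116 (332), the GTPase gene Gimap5 (326) and 5830416P10Rik (324). Tag number did not order the sites in the same way as fold enrichment, which was 36.7 at Tnf and 31.4 at Tctex1d4 but 19.3 at Rilpl2 and 14.2 at Ptpn22.

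The NFAT core was more frequent at promoter sites than in the sequence around them. GGAAAA, searched on both strands within 100 bp of the summit, was found at 620 of 1288 promoter sites (48.1%, 45.4 to 50.9%) and at 45.2% of other NFATc2 sites. Windows of the same length placed 1 kb to either side of the promoter sites held it in 18.8%, and windows centred on the TSSs of all protein-coding genes in 14.9%, or 13.1% where the TSS had an H3K4me3 peak with curdlan. The windows differed in base composition, with a median GC content of 48.8% at promoter sites, 45.8% at other sites and 55.7% at the TSSs. Within windows of 45 to 55% GC the core was found at 46.6% of promoter sites and 18.3% of TSSs, and within windows of 55 to 65% GC at 38.5% and 12.7%.

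Motifs of other factors differed in frequency between promoter sites and other NFATc2 sites. The AP-1 consensus TGANTCA was present at 16.1% (14.2 to 18.3%) of promoter sites, 22.6% of other sites and 4.37% of protein-coding TSSs. GAGGAAG, the site of PU.1, a factor that defines myeloid cells, was found at 16.8%, 20.9% and 9.99% of the same 3 sets, and TGTGGT, the RUNX site, at 20.3%, 29.7% and 11.0%. Conversely GGGCGG, the GC box bound by SP and KLF factors, was found at 12.3% of promoter sites and 3.44% of other sites but at 31.8% of protein-coding TSSs, and the ETS site CCGGAAG at 4.50%, 1.34% and 7.26%. The interferon response element was found at 6.91%, 6.43% and 2.24%, and the NF-κB site at 2.02%, 1.52% and 0.864%. CCAAT was about equally common, at 24.8%, 22.9% and 26.0%. An NFAT core and an AP-1 consensus were both present at 93 promoter sites, the core alone at 527, the AP-1 consensus alone at 115 and neither at 553. The letters of some motifs overlap (GAGGAAG and GGAAAA share GGAA), and a match is a description of the sequence, not a measured site of binding.

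**Figure D2:**
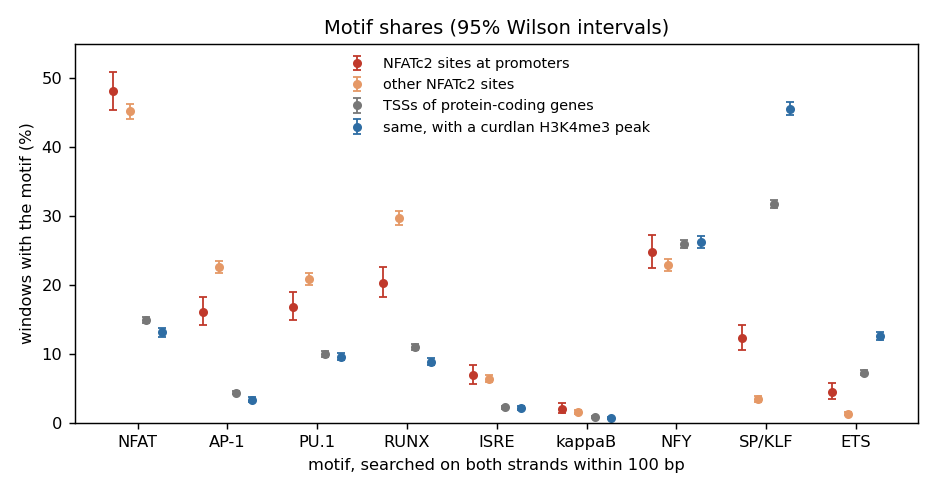
Share of windows (y axis, %) that hold each motif (x axis) within 100 bp of the summit or TSS, for NFATc2 sites at promoters, other NFATc2 sites, TSSs of protein-coding genes and those TSSs with a curdlan H3K4me3 peak; bars are 95% Wilson intervals. The NFAT core stands at 48.1% and 45.2% in both NFATc2 sets and at 14.9% and 13.1% in the TSS sets, whereas the GC box (SP/KLF) stands at 12.3% at promoter sites and 45.6% at TSSs with H3K4me3.

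Most promoter sites lay in H3K4me3 that was already present before curdlan. A site was counted as marked where its NFATc2 peak shared 1 bp or more with an H3K4me3 peak. This held for 982 sites in NT (76.2%, 73.8 to 78.5%), 988 with curdlan (76.7%) and 983 with curdlan and FK506 (76.3%), against 17.3%, 16.7% and 15.9% of other NFATc2 sites. The mark was present in all 3 lists at 954 sites (74.1%) and in none at 277 (21.5%). The remaining 57 sites were split among 17 that were marked in the curdlan lists with and without FK506 but not in NT, 9 with curdlan alone, 8 in NT and curdlan but not with FK506, 9 in NT and with FK506 but not with curdlan, 11 in NT alone and 3 in the FK506 list alone. Counted by gene, 91.7% of the 1183 protein-coding genes with a promoter site had an NT peak within 1 kb of a TSS, against 46.5% of those without.

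The NFATc2 summit usually lay beside the H3K4me3 summit and not on it. Over the 973 sites with the NFATc2 summit inside a curdlan H3K4me3 peak, the summits of the 2 marks were a median of 570 bp apart (quartiles 276 and 980 bp), were within 200 bp at 16.1% of sites, and the H3K4me3 summit was on the downstream side in the direction of the gene at 61.3% (58.1 to 64.3%). Marked sites were more frequent near the TSS, with 83.5% (78.4 to 87.6%) of sites within 100 bp touching H3K4me3 in at least 1 list and 74.1% (70.1 to 77.7%) of those 501 to 1000 bp away. The NFAT core ran the other way, from 42.6% (36.6 to 48.8%) within 100 bp to 54.0% (49.6 to 58.2%) at 501 to 1000 bp. Sites with more NFATc2 tags were marked more often, from 72.7% (67.6 to 77.2%) of the 322 sites with the fewest tags to 83.2% (78.8 to 86.9%) of the 322 with the most. By peak p-value the order turned. A value of 1e-10 or less was given to 45.4% (42.4 to 48.5%) of marked sites and 52.7% (46.8 to 58.5%) of unmarked sites. Marked sites also had longer NFATc2 peaks, with a median of 1098 bp against 999 bp.

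The 277 promoter sites without H3K4me3 in any list had a different sequence make-up. PU.1 sites were found at 26.4% of them and at 14.2% of the 1011 marked sites, AP-1 consensus sites at 22.0% and 14.5%, and RUNX sites at 27.8% and 18.3%, whereas GC boxes were found at 3.25% and 14.7%. NFAT cores were about as common, at 44.4% and 49.2%. The median GC content was 46.8% without and 49.8% with H3K4me3. Unmarked sites held a median of 57 NFATc2 tags against 68, but a median fold enrichment of 14.5 against 11.7. In the shares of PU.1, AP-1, RUNX and GC box motifs the unmarked promoter sites lay nearer to the other NFATc2 sites than the marked ones did. Prkar1b and Gm12301, with 510 and 498 NFATc2 tags, were in this group, as were Ccl7, a monocyte chemokine gene with 98 tags at its site, and Fscn1, which encodes the actin bundler fascin of mature DC and had 50 tags, and for both of the latter genes no H3K4me3 peak lay within 1 kb of a TSS in any list.

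For levels, the peaks of the 3 H3K4me3 lists were merged into 16088 regions, of which 987 touched a promoter site, 26 of them with 2 sites. Tags were summed per list and scaled to 1000000 tags of the library (RPM), over intervals that were called separately in each list. Regions at promoter sites had a median level of 52.5 RPM in NT, 50.6 RPM with curdlan and 48.1 RPM once FK506 was added, against 38.5, 35.4 and 34.4 in regions that covered a TSS but no NFATc2 site. They were also longer, with a median called length of 3390, 3726 and 3594 bp against 2750, 2864 and 2807 bp. Per kb of called peak the levels were closer, at 15.3, 13.6 and 13.3 RPM against 13.9, 12.2 and 12.1.

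The comparison of curdlan with NT asked where H3K4me3 changed after dectin-1 engagement. For regions with a peak in both lists the log2 ratio of RPM was centred on its median over all 13976 such regions (-0.14 before centring), and regions past 2-fold were called. At promoter sites 21 of 954 regions were 2-fold or more higher with curdlan, or 2.20% (1.44 to 3.34%), beside 1.35% of all regions and 1.02% (0.827 to 1.25%) of the 8641 regions with a TSS and no NFATc2 site. None of the 954 was 2-fold lower, with an upper limit of 0.401% for the share, beside 0.286% of all regions. Regions that touched only NFATc2 sites over 1 kb from any TSS had a share of 2.86% (2.03 to 4.01%). Such a region could itself cover a TSS. The median centred log2 ratio at promoter sites was 0.04, and 527 of the 954 regions lay above 0. Counted by gene, 24 of 1079 protein-coding genes with a promoter site (2.22%) and 102 of 9766 without (1.04%) were 2-fold higher, beside 1.16% of all protein-coding genes with a peak in both lists, while 0.083% of those genes were 2-fold lower.

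The regions past 2-fold at promoter sites had longer called peaks with curdlan. All 21 had a longer called peak with curdlan than in NT. The length went from 1804 to 7255 bp at Nr4a1 and from 2044 to 6327 bp at Cxcl2. They were chosen for a higher tag sum, which grows with called length, so longer peaks follow in part from that choice. The median called length of regions at promoter sites was also longer with curdlan, at 3726 bp against 3390 bp in NT. Per kb of called peak 20 of the 21 were still higher with curdlan, but only 5 of them by 2-fold or more (Nr4a1, Ccl3, Slamf7, 1190002H23Rik and Myo1d), so that the share at promoter sites became 0.524% and that of all regions 0.336%. By the fold enrichment of the peak summit 37 regions at promoter sites (3.88%) and 4.11% of all regions were past 2-fold. The promoter sites did not exceed the background. Of the 21 regions above, 15 were higher with curdlan by fold enrichment, 7 of them by 2-fold or more. Slamf7, with a log2 ratio of -0.12, was among those not higher. The curdlan library had more tags than the NT library, and the part of depth in the called length was not tested. Regions were also taken at like mean tag counts, and the share past 2-fold by RPM was compared between promoter sites and TSSs without a site. Among regions with a mean below 200 tags it was 2 of 50 and 25 of 860 (2.91%), and with 200 to 500 tags 2.61% and 1.17%. With 500 to 1000 tags it was 2.79% and 0.661%, and with 1000 or more 7 of 466 and 18 of 2416.

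**Figure D3:**
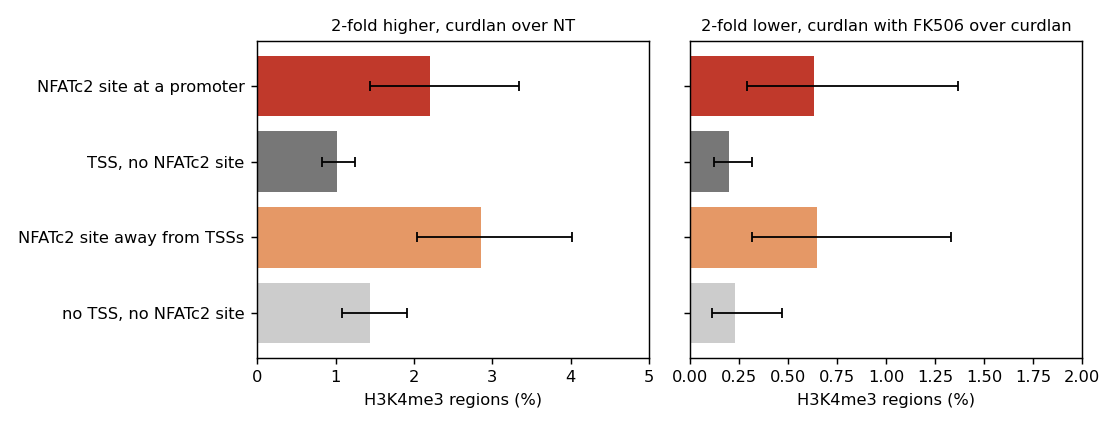
Share of H3K4me3 regions (x axis, %) that were 2-fold or more higher with curdlan than in NT (left) or 2-fold or more lower with curdlan and FK506 than with curdlan (right), by class of region (y axis); bars are 95% Wilson intervals. On the left regions with an NFATc2 site at a promoter stand at 2.20% and TSS regions with no site at 1.02%, and on the right at 0.63% and 0.197%. In the class with an NFATc2 site away from TSSs the site is over 1 kb from any TSS, but the region may cover one.

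Nr4a1, an orphan nuclear receptor induced as an immediate early gene, had the largest rise by RPM. Its region held 117 tags in NT, 2124 with curdlan and 956 with FK506 added, which is 7.02, 99.8 and 49.1 RPM. The level with curdlan stood 15.7-fold above NT after centring (13.0 to 19.1, exact binomial interval for the ratio of the 2 counts). The counts were summed over called peaks of 1804 bp in NT and 7255 bp with curdlan. The interval of the rise does not cover that difference in length. The centred log2 ratio at Nr4a1 was 3.973 by RPM, but 2.018 per kb of called peak and 1.298 by fold enrichment. With FK506 the level in RPM was 0.51 of the curdlan level (0.47 to 0.55). The NFATc2 site of Nr4a1 held 45 tags, near the lower quartile of 44 and below the median of 65. Nr4a3, of the same receptor family, started from a higher level and went from 1740 to 4510 tags, or 2.24-fold (2.12 to 2.37), and stood at 3808 tags with FK506, 0.95 of the curdlan level.

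Among the risen regions were 4 of chemokine genes. Ccl3 held 179 tags in NT, 991 with curdlan and 677 when FK506 was present, a rise of 4.79-fold (4.08 to 5.65). Ccl4 held 302, 1183 and 812 tags, a rise of 3.39-fold (2.98 to 3.86), and Cxcl2, which encodes a neutrophil chemokine, 179, 861 and 699 tags, a rise of 4.16-fold (3.54 to 4.92). Ccl17, which encodes a ligand of CCR4 made by DC, held 435, 1297 and 895 tags, a rise of 2.58-fold (2.31 to 2.88). All 4 were highest with curdlan and stood between the other conditions with FK506, at 0.77 of the curdlan level for Ccl3 (0.70 to 0.85) and Ccl4 (0.71 to 0.85), 0.78 for Ccl17 and 0.92 for Cxcl2, whose interval of 0.83 to 1.01 reached 1.

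Other risen regions belonged to signalling and receptor genes. Stat5a, which encodes a signal transducer of GM-CSF, went from 613 to 2512 tags (3.55-fold, 3.24 to 3.88) and held 2000 with FK506. Ralgds, an exchange factor of Ral GTPases, held 282, 1032 and 674 tags in the same order of conditions (3.17-fold). The leukocyte receptor Slamf7 held 145, 485 and 260 tags (2.89-fold), and C5ar1, the receptor of complement C5a, 818, 2112 and 1464 (2.23-fold). Nfkbib, which encodes the NF-κB inhibitor IκBβ, held 909, 2290 and 1907 tags (2.18-fold), and Dusp14, which encodes a MAP kinase phosphatase, 342, 878 and 329 (2.22-fold). The region shared by Tctex1d4 and the kinase gene Plk3, with 2 NFATc2 sites, held 923, 2729 and 1711 tags (2.56-fold). The other risen regions were those of 1190002H23Rik, 4930447M23Rik, Gm17507, Myo1d, Gm16181, the repressor gene Tgif2, the GTPase gene Rhoc, and 4833407H14Rik with 5830416P10Rik, with ratios of 2.02 to 5.37.

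**Figure D4:**
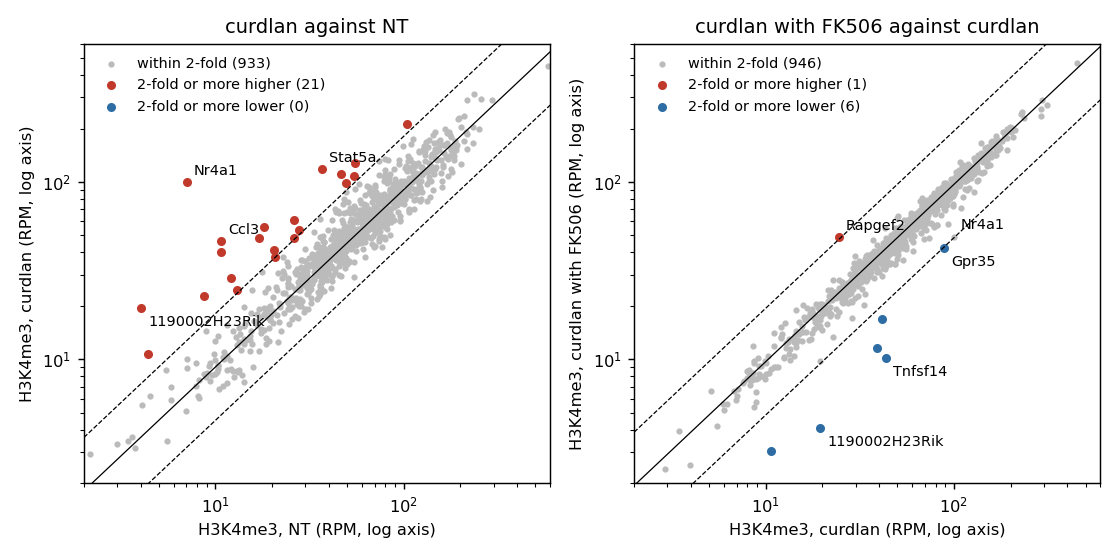
H3K4me3 level (RPM, log axes) of each region at a promoter site, with curdlan against NT on the left and with curdlan and FK506 against curdlan on the right. The solid line is the median ratio over all regions and the dashed lines 2-fold to either side; 21 regions lie above the upper line on the left and none below the lower, and 1 lies above and 6 below on the right.

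At the low end no region reached 2-fold. The smallest ratios among regions with 100 tags or more were at Tbc1d14, with 237 tags in NT and 158 with curdlan (0.58, 0.47 to 0.71), Ffar2, a receptor of short-chain fatty acids, with 903 and 619 (0.59, 0.53 to 0.66), A630072L19Rik with 1281 and 915 (0.62), Gga1 with 264 and 193 (0.63) and Siglece with 357 and 266 (0.64). Of the 4 with a peak in all 3 lists, Ffar2, A630072L19Rik, Gga1 and Siglece, the level with FK506 was 0.97, 0.97, 1.15 and 0.84 of that with curdlan. Tbc1d14 had no peak with FK506, the nearest lying 15342 bp away.

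A curdlan peak with no NT peak in the region was found at 14 of 968 promoter-site regions (1.45%, 0.863 to 2.41%), beside 4.02% of all regions and 1.01% of TSS regions without a site, and none of the 14 had an NT peak within 2 kb. An NT peak with no curdlan peak was found at 17 of 971 (1.75%), beside 8.22% of all regions and 1.62% of TSS regions without a site. Among these 17, a curdlan peak lay within 2 kb at Mlec (330 bp away), Tbc1d10b (511 bp) and S100a5 (1293 bp). Being absent from a list means that no peak passed the threshold of that library, and the tags below threshold are not in the lists, so no ratio is given. Tnfsf14, which encodes the TNF family ligand LIGHT, held 923 tags with curdlan and 197 with FK506. Tnfsf15, which encodes the ligand TL1A, held 423 and 286, and Il23a, the p19 subunit of IL-23, 412 and 189, with the nearest NT peak 2665 bp away from the Il23a region. Siglec5, a sialic acid-binding inhibitory receptor, held 834 and 226 tags, Gm11998 300 and 202, a region with U6 and Stfa2 sites 246 and 176, and Fam159b 84 and 49.

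The remaining 7 regions without an NT peak had no peak with FK506 either. Wsb2 held 492 tags with curdlan, and its nearest peaks in the other lists were 2262 bp (NT) and 2305 bp (FK506) away. Ehd1, which encodes an endocytic recycling protein, held 349 tags with the nearest peaks 5122 and 4973 bp away. Etv6 (131 tags), D930020B18Rik (109), Dapp1 (94) and Gne (58) were among the small peaks, and at Etv6, where the site lay by 1 of several TSSs, the peaks summed over all TSSs of the gene held 1530, 2251 and 1652 tags. The 17 regions with an NT and no curdlan peak were small as well, from 39 tags at Agmo to 300 at Gm15124, and 8 of them had a peak again with FK506.

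The comparison of curdlan with FK506 against curdlan alone asked where H3K4me3 differed once calcineurin was inhibited, and it shares the curdlan library with the comparison above. Over all 13720 regions with peaks in both lists the median log2 ratio before centring was -0.05. At promoter sites 6 of 953 regions were 2-fold or more lower with FK506, or 0.63% (0.289 to 1.37%), beside 0.27% of all regions and 0.197% (0.123 to 0.316%) of TSS regions without a site, so the intervals overlapped. A single region, that of the Rap exchange factor Rapgef2, was 2-fold higher (261 tags in NT, 520 with curdlan, 950 with FK506), beside 0.0583% of all regions. A peak with curdlan and none with FK506 was found at 15 of 968 regions (1.55%), beside 5.78% of all regions and 1.32% of TSS regions without a site, and the reverse at 10 of 963 (1.04%), beside 4.86% and 0.977%. By gene, 6 of 1082 protein-coding genes with a promoter site were 2-fold lower, beside 0.212% of all protein-coding genes lower and 0.0277% higher.

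The 6 lower regions were those of 1190002H23Rik, Tnfsf14, 4930447M23Rik, Siglec5, Dusp14 and Gpr35. At 1190002H23Rik the tags went from 67 in NT to 416 with curdlan and 80 with FK506, so that the level with FK506 was 0.22 (0.17 to 0.28) of that with curdlan and close to NT in RPM (4.02 and 4.11). At 4930447M23Rik they went from 73 to 228 and 59, a ratio of 0.29 (0.22 to 0.39). Tnfsf14 stood at 0.24 (0.21 to 0.28) and Siglec5 at 0.31 (0.26 to 0.35) of the curdlan level, and neither had an NT peak. Dusp14 stood at 0.42 (0.37 to 0.48) and at 16.9 RPM against 20.5 in NT. Gpr35, a G protein-coupled receptor gene, was not among the risen regions, with 1191, 1877 and 829 tags, and stood at 0.50 (0.46 to 0.54) of the curdlan level, below NT (42.6 against 71.5 RPM). Next in order and inside 2-fold were Nr4a1 (0.51), Il23a (0.52, 0.43 to 0.62), Slamf7 (0.60) and Myo1d (0.62). Per kb of called peak, 3 regions were 2-fold or more lower (Tnfsf14, Siglec5 and Slc44a1), or 0.315%, beside 0.0364% of all regions. By that measure 1190002H23Rik, Dusp14 and Gpr35 were short of 2-fold, with log2 ratios of -0.62, -0.93 and -0.42. At 4930447M23Rik the log2 ratio per kb was 0.03, with a called peak of 3499 bp with curdlan and 978 bp with FK506.

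All 21 regions that had risen with curdlan still had a peak with FK506, 20 of them at a lower centred level, 3 of them 2-fold or more lower, with a median log2 ratio of -0.38. Of the 182 risen regions in the whole series with a peak in both curdlan lists, 140 were lower with FK506, with a median of -0.28, and for the 86 risen TSS regions without an NFATc2 site the median was -0.25 with 7 regions 2-fold lower. These regions were chosen for a high value in the curdlan library, which is also the denominator here, and the counts are a description only. The region of 4833407H14Rik and 5830416P10Rik was the exception among the 21, at 1022 tags with curdlan and 961 with FK506, a ratio of 1.06. Highest with FK506 after Rapgef2 were Gm10485 (1.43), the lamin gene Lmna (1.34), Llgl1 (1.34) and Ly96, which encodes the TLR4 partner MD-2 (1.33).

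**Figure D5:**
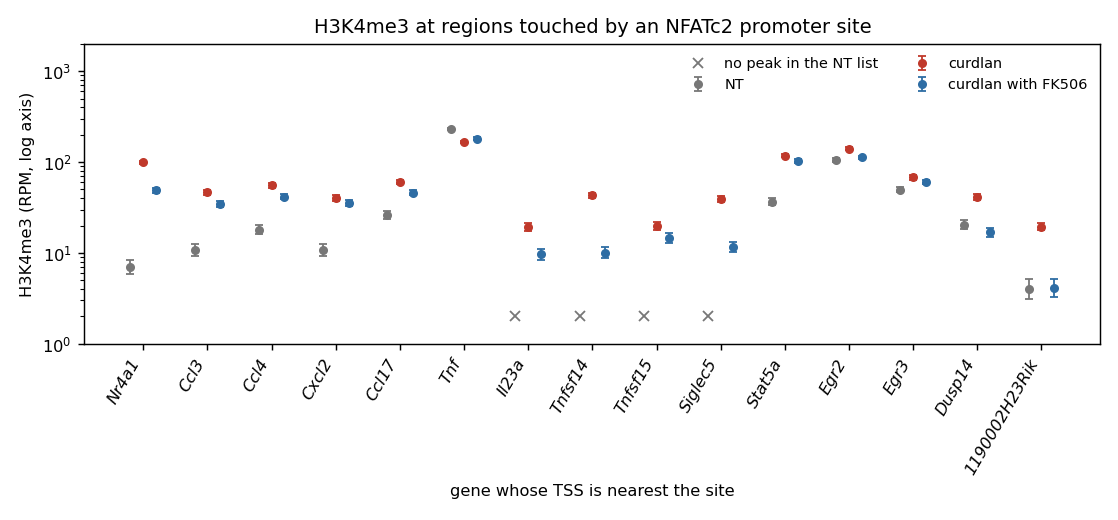
H3K4me3 level (y axis, RPM, log axis) in NT, curdlan and curdlan with FK506 at the regions touched by 15 named promoter sites (x axis); points are the single library of each condition, bars are exact 95% Poisson intervals of the tag count, and crosses mark regions with no peak in the NT list, drawn at an arbitrary height. Nr4a1 spans 7.02 to 99.8 RPM, Tnf is highest in NT at 233.1, and Il23a, Tnfsf14, Tnfsf15 and Siglec5 have no NT peak.

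Among the 13 gene lists counted, the NF-κB genes had the largest share with a promoter site, at 8 of 14 (57.1%, 32.6 to 78.6%), beside 5.29% of all protein-coding genes. For the 58 listed genes with a site, H3K4me3 values in this and the following paragraphs sum all peaks within 1 kb of any TSS of the gene. At 10 of them (Nfkb1, Nfkbiz, Nfkbia, Rcan1, Prkcd, Ciita, Runx1, Etv6, Socs5 and Rpl11) the site touched fewer of the merged regions or none. At Nr4a3 the site touched peaks of both curdlan lists but not the NT peak of the same merged region. The sites of the inhibitor gene Nfkbid (198 tags) and of Tnip3 (195), which encodes an inhibitor of NF-κB signalling, were the strongest, followed by the subunits Nfkb2 (156) and Nfkb1 (98), and by Nfkbib (64), Nfkbiz (62), Rela (49) and Nfkbia (48). Nfkb2 held 1871 H3K4me3 tags in NT, 3737 with curdlan and 3027 with FK506 at its site, a log2 ratio of 0.79 for curdlan over NT. By all peaks within 1 kb of any TSS of the gene, Nfkb1 (1017, 2556 and 2071 tags) and Nfkbib passed 2-fold. Of all 14 listed NF-κB genes, with a site or without, 3 were 2-fold higher, beside 1.16% of all protein-coding genes. At Nfkb1 and Nfkbia the site touched another region than the main promoter peak, and that region held 150, 178 and 150 tags at Nfkb1 and 441, 375 and 372 at Nfkbia, where the peaks of the gene held 1821, 3429 and 3039. None of the 8 was 2-fold lower with FK506, beside 0.212% of all protein-coding genes, a share at which 8 genes would rarely include 1.

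Of 51 cytokine and chemokine genes 8 had a promoter site (15.7%, 8.17 to 28.0%). Besides Ccl3, Ccl4, Ccl17, Cxcl2, Il23a and Ccl7, these were Ccl6 (38 NFATc2 tags) and Tgfb1 (33 tags), whose H3K4me3 log2 ratios of curdlan over NT were -0.14 and 0.18. Of the 6 with peaks in NT and curdlan, 4 were 2-fold higher, beside 1.16% of all protein-coding genes, and 1 more had a curdlan peak and no NT peak. Of all 19 listed cytokine and chemokine genes with peaks in NT and curdlan, with a site or without, 9 were 2-fold higher. Of 18 TNF family ligand genes 3 had a site (16.7%, 5.84 to 39.2%). Tnf held 3884 tags in NT, 3550 with curdlan and 3544 with FK506, or 233.1, 166.8 and 182.0 RPM, and so was already high before curdlan (log2 ratio -0.34), whereas Tnfsf14 and Tnfsf15 had no NT peak.

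Of 32 immediate early transcription factor genes 6 had a promoter site (18.8%, 8.89 to 35.3%), beside 5.29% of all protein-coding genes. An NT peak was present at 31 of the 32. Egr2 and Egr3, zinc finger factors known as NFAT targets in T cells, had the strongest sites (270 and 170 tags) with fold enrichments of 37.8 and 41.1. Their H3K4me3 went from 1753 tags in NT to 2985 with curdlan and 2192 with FK506 at Egr2, and from 830 to 1443 and 1180 at Egr3, log2 ratios of 0.56 and 0.59 for curdlan over NT, short of 2-fold. Nr4a1 and Nr4a3 passed 2-fold, and Nr4a2 (2907, 4093 and 2937 tags, log2 ratio 0.28) and the AP-1 subunit gene Fos (587, 795 and 915 tags, log2 ratio 0.23) did not. Of all 31 listed genes with peaks in NT and curdlan, with a site or without, 6 were 2-fold higher, beside 1.16% of all protein-coding genes. In all 3 Nr4a genes the curdlan level was the highest of the 3 conditions.

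Of 19 NFAT and calcineurin genes 2 had a promoter site (10.5%, 2.94 to 31.4%), namely Rcan1, which encodes an inhibitor of calcineurin (149 tags, 36.5-fold enrichment), and Ppp3r1, which encodes the calcineurin B subunit (37 tags). The Rcan1 site touched no H3K4me3 peak, and the peaks at the TSSs of that gene held 145, 220 and 171 tags. Of 27 annotated dectin-1 signalling genes 2 had a site (7.41%, 2.06 to 23.4%), Vav3 (54 tags) and Prkcd (39 tags). Neither passed 2-fold with curdlan (log2 ratios -0.13 and -0.02), beside 1.16% of all protein-coding genes 2-fold higher. At that share 2 genes would rarely include 1. Of all 26 listed dectin-1 signalling genes with peaks in NT and curdlan, with a site or without, 2 were 2-fold higher. Of 20 other myeloid receptor genes 2 had a site (10.0%, 2.79 to 30.1%). These were Clec4e, which encodes Mincle (125 tags, H3K4me3 of 404, 717 and 454 tags), and Tlr4 (105 tags, H3K4me3 of 1593, 1369 and 1208).

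Feedback and maturation genes followed. Of 18 costimulation and maturation genes 7 had a site (38.9%, 20.3 to 61.4%). Among them were the MHC class II genes H2-Eb1 (234 tags) and H2-Ab1 (210) and their activator Ciita (175). None of the 6 with peaks in NT and curdlan passed 2-fold, beside 1.16% of all protein-coding genes 2-fold higher. At that share 6 genes would rarely include 1. Ciita had the lowest log2 ratio at -0.55 (4267, 3373 and 3759 tags) and Icam1, an adhesion receptor, the highest at 0.46 (1751, 2788 and 2559). Of all 15 listed costimulation and maturation genes with peaks in NT and curdlan, with a site or without, 3 were 2-fold higher. Of 9 SOCS and cytokine feedback genes 4 had a site (44.4%, 18.9 to 73.3%). These were Cish (109 tags), Socs1 (87), Socs3 (40) and Socs5 (36), with log2 ratios of 0.34, -0.34, 0.84 and 0.38. Of 13 dual specificity phosphatase genes 2 had a site (15.4%, 4.33 to 42.2%), Dusp16 (60 tags) and Dusp14. Of 24 annotated lineage factor genes 4 had a site (16.7%, 6.68 to 35.9%). These were Irf5 (107 tags), Runx1 (95), Stat5a (49) and Etv6 (41), of which Stat5a alone passed 2-fold.

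For comparison, sites were found at 6 of 80 cytosolic ribosomal protein genes (7.50%, 3.48 to 15.4%) and at 4 of 67 replication-dependent histone genes (5.97%, 2.35 to 14.4%). The histone genes Hist1h4a and Hist1h3a shared the same site and the same H3K4me3 region, so the histone genes with a site were not all separate cases. No member of either list with a site passed 2-fold, beside 1.16% of all protein-coding genes 2-fold higher with curdlan. So few genes would often give a count of 0 at that share. Ribosomal genes with a site had log2 ratios of curdlan over NT such as -0.04 at Rpl36a, 0.10 at Rps29 and 0.37 at Rps13, and the histone genes with a site ranged from -0.40 at Hist1h4a to -0.50 at Hist1h2bn. Over the histone list as a whole, with a site or without, the median was -0.40.

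The strength and the motifs of the sites were also set beside the H3K4me3 change. With the sites in 4 equal groups by NFATc2 tags, from fewest to most, 7, 5, 2 and 8 regions were 2-fold higher with curdlan (a region with sites in 2 groups counts in both), and 2, 0, 6 and 7 sites lay in regions with a curdlan and no NT peak. Of the 23 sites in risen regions 11 held an NFAT core (47.8%, 29.2 to 67.0%) and 6 an AP-1 consensus (26.1%, 12.5 to 46.5%), beside 50.2% and 13.8% of the 955 sites in regions within 2-fold. Of the 15 sites in regions without an NT peak 3 held an NFAT core (20.0%, 7.05 to 45.2%) and 5 an AP-1 consensus (33.3%, 15.2 to 58.3%).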

How the data were processed

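The 4 peak lists deposited by the authors were each made by MACS (version 1.4.2 per the file headers) from 1 ChIP library and its input, with a p-value cutoff of 1e-05. Bowtie and mm9 are named in the submitters' processing notes, and duplicate reads had been removed. The deposited values per peak are a tag count, a score (the −log10 p-value times 10), a fold enrichment (ratio over local background) and an FDR in percent, as written by the authors' peak caller. No normalization had been applied to the tag counts.

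TSSs of all annotated transcripts were taken from GENCODE vM1 (NCBIM37, the build of the files, checked against chromosome lengths). The summit was the peak start plus the summit offset less 1. H3K4me3 peaks of the 3 lists were merged where they shared 1 bp or more, tags were summed per list and scaled to 1000000 ChIP tags by the total in the header (RPM), and log2 ratios were centred on the median over regions present in both lists. A region was called at 2-fold or more. Named regions were the 15 sites with most NFATc2 tags, sites of listed genes, and, of regions with 100 tags or more in at least 1 list, the extremes of both ratios and the regions with a curdlan and no NT peak. Every region past 2-fold is also named. Intervals are 95% Wilson intervals for shares and exact conditional binomial or Poisson intervals for counts. With 1 library per condition no test was made. Gene lists, motifs and members were chosen with earlier results of these data known. The marker Spi1 and 1 gene each of the dectin-1 and lineage lists were not found under their symbols in this annotation. The sequence at Siglec5 is not shown because its summit lies in an exon. A sequence and the values of some named genes are not reported here. Scripts were tested on simulated data and used Python 3.11.15, pandas 2.3.3, scipy 1.17.1 and pysam 0.24.0.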

Additional observations from a re-analysis of the deposited data

How the results depend on the processing

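With 1 library per condition, the spread between replicates is unknown, and a tag count over separately called peaks moves with the called length and the depth of the library. No paired analysis was possible because each condition had a single library and no test was made. The number of promoter sites was 782 with TSSs within 500 bp and 605 at a peak p-value of 1e-10 or less. The share touching H3K4me3 was 73.1% (NT), 74.2% (curdlan) and 73.9% (FK506) at that p-value, and 79.4% (curdlan) and 78.8% (FK506) for TSSs within 500 bp. The share of regions 2-fold higher with curdlan was 0.524% per kb of peak (all regions 0.336%) and 3.88% by fold enrichment (all regions 4.11%), and was 7.13% at a 1.5-fold limit (all regions 4.34%). The share lower with FK506 was 3.88% by fold enrichment (all regions 3.95%) and 1.57% at 1.5-fold (all regions 1.17%). GGAAAA was found at 35.2% of sites within 50 bp (TSSs 7.82%), 62.7% within 250 bp (TSSs 34.7%) and 51.9% at the stricter p-value. The median of promoter sites over that of other sites was 1.03 for tags and 0.904 for fold enrichment. Without centring, 16 regions (1.68%, all regions 0.966%) were 2-fold higher with curdlan and 7 (0.735%, all regions 0.313%) were lower with FK506. Per kb of peak, 3 (0.315%, all regions 0.0364%) were lower with FK506. Counting protein-coding TSSs alone, 19 regions were 2-fold higher and 13 had a curdlan and no NT peak. These last 2 counts, and the search for NT or curdlan peaks within 2 kb, were chosen after seeing the data. The causes of these differences were not tested beyond the called lengths given above.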
